A study of Mus musculus with 8 samples.

Results

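Clu, Acta2, Glipr2 and Foxd4 are 4 genes that read much higher in granulocyte-macrophage progenitors (GMP) of DKO mice and that lie outside the myeloid and interferon programs. They were selected on the size and consistency of their measured difference in the comparison described here. Their own values are therefore given as a description, with no test. They are 4 of the 16593 genes on the array and are read by 8 of its 25697 probes. All probes annotated to these symbols are described. The DKO samples come from mice that lack Ssb1 and Ssb2, which bind single-stranded DNA and are products of the genes Nabp2 and Nabp1, and the control samples come from wild-type mice. Both groups are female C57BL/6 mice, with 4 arrays each. The labels state no age and no way in which the genes were deleted. GMP give rise to granulocytes and monocytes and were isolated by their low lineage markers, high CD34 and CD16/32, and the presence of c-Kit without Sca-1. Their RNA was hybridised in 1 colour to Illumina MouseRef-8 v2.0 arrays.

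Clusterin (Clu) is a secreted chaperone, also known as apolipoprotein J, that binds misfolded proteins and lipids and is taken up through lipoprotein receptors. Acta2 encodes smooth muscle alpha-actin, a contractile filament protein of smooth muscle and myofibroblasts whose gene is driven by serum response factor (SRF) and TGF-beta. Glipr2 encodes GAPR-1, a CAP-superfamily protein on the Golgi membrane that binds Beclin 1 and restrains autophagy. Foxd4 encodes a forkhead transcription factor, and relatives of it act in the early neural plate of Xenopus.

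RefSeq promoter windows were held for 3 of the 4 genes, Acta2, Glipr2 and Foxd4, and are shown because SRF binds the CArG box, a motif in the promoters of smooth muscle actin genes. Each window runs from 250 bases before the gene's start to 50 bases after it, on assembly GRCm38.p6. The Acta2 window lies at chr19:34255324-34255623 on the minus strand, the Glipr2 window at chr4:43957452-43957751 on the plus strand and the Foxd4 window at chr19:24900967-24901266 on the minus strand. The sequences read 5′ to 3′ along the gene, and capitals mark a CArG box in Glipr2 and CArG-like boxes, with 1 base of the A and T core replaced, in Acta2 and Foxd4.
Acta2: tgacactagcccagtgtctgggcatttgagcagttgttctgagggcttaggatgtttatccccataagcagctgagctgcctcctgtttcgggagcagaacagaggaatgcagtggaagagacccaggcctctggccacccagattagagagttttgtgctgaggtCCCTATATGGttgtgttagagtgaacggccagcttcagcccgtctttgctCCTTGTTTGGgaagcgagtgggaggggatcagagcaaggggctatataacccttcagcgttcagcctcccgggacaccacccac
Glipr2: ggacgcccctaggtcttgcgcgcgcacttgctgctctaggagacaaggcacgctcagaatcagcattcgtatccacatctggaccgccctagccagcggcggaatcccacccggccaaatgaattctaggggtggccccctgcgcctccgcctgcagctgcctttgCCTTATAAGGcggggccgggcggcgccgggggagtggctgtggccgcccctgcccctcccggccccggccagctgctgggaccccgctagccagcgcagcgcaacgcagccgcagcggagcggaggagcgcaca
Foxd4: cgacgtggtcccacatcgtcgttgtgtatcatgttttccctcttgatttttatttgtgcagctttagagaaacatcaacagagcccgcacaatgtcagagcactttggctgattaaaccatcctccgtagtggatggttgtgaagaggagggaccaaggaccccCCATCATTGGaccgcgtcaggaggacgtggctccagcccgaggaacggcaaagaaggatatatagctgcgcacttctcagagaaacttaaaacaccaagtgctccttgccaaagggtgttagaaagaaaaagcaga
Counted from 1 at the 5′ end of each window, the Glipr2 box lies at positions 167 to 176. The Acta2 window holds boxes at 167 to 176 and at 217 to 226, and the Foxd4 box lies at 165 to 174. On either strand, a CArG box stands in 1.63% of 32851 RefSeq windows of the same length, a CArG-like box in 8.5%, and at least 1 of the 2 forms in 9.98%. The motif TATANA stands at 259 to 264 in Acta2 and at 223 to 228 in Foxd4, and in 24.7% of all windows. TGTTTA, the core bound by many forkhead factors, stands at 53 to 58 in Acta2 and in 13.4% of all windows. GGGCGG stands at 84 to 89, 184 to 189 and 210 to 215 in Glipr2 and in 35.7% of all windows. The motifs were chosen with the sequences in view, and a match is a run of letters, not a shown binding site. Of the 96 tested genes with a CArG box in a window, 13 (13.5%) were called higher and 12 (12.5%) lower, beside 613 (9.87%) and 886 (14.3%) of the 6210 with a window but no such box, and the difference was not tested.

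The arrays gave mean raw intensities between 380.2 and 621.9 in DKO and between 604.8 and 736.1 in control, and DKO 1 was the dimmest array. Between 9774 and 11103 probes were detected on the DKO arrays, and between 10740 and 11227 on the control arrays, where detected means a deposited detection p-value under 0.05. Normalized values below are log2 intensities after background correction and quantile normalization. A probe was tested with limma if it was detected on at least 4 of the 8 arrays, which 10856 probes were, standing for 7604 genes. Of the 8 probes of the 4 genes, 5 passed this filter and 3 Acta2 probes did not, and 3 of the 5 passed through the DKO arrays alone. Nabp2 fell in DKO by its brighter probe (log2 difference -1.68, SE 0.27, limma adjusted p = 0.00198), while its dimmer probe differed by -0.41 (limma adjusted p = 0.355). The only probe for Nabp1 was not detected on any of the 8 arrays, so it is no check of that deletion. The GMP markers Mpo, Elane, Prtn3, Ctsg and Cd34 were detected on all 8 arrays. By the brightest probe of each, the first 4 had log2 differences between 0.03 for Elane and 0.19 for Mpo, while Cd34, Fcnb and Csf2ra fell (-1.42, -1.62 and -0.68) and a pair of other Mpo probes was called lower (-0.63 and -1.04).

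Clu had raw intensities of 422.3, 736.9, 873.3 and 1127.8 on the 4 DKO arrays, and of 246.6, 349.7, 266.2 and 266.6 on the 4 control arrays. After normalization, its probe ILMN_2727153 read 9.64, 9.51, 9.69 and 9.85 in DKO, and 7.0, 7.26, 6.92 and 7.16 in control. Every DKO array stood above every control array on both scales, and the lowest normalized DKO value exceeded the highest control value by 2.25. Clu averaged 9.67 ± 0.14 in DKO and 7.09 ± 0.15 in control (SD, n = 4 each), a log2 difference of 2.59 or 6.01-fold. It was detected on all 8 arrays, so the secreted chaperone's transcript was already measured in control GMP. The raw mean intensities, which include the array background, differed 2.80-fold. A higher level per cell and more cells with the transcript cannot be told apart in these bulk samples.

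Acta2 was read by 4 probes, and 1 of them separated the groups widely. ILMN_2693895 had raw intensities of 157.7, 239.2, 236.8 and 276.9 in DKO, and of 131.9, 154.3, 143.9 and 137.5 in control. Its normalized values were 7.27, 7.16, 7.11 and 7.29 in DKO, and 4.52, 4.79, 4.87 and 4.70 in control. The DKO values were nearly equal to each other and none overlapped with control, with a gap of 2.24 between the groups. The probe was detected on 4 of 4 DKO arrays and on 0 of 4 control arrays, where its detection p-values lay between 0.0802 and 0.42. Its means of 7.21 ± 0.09 in DKO and 4.72 ± 0.15 in control (SD, n = 4 each) differ by 2.49. Because the control level is not above background, the difference is given as at least 4.56-fold higher. That bound sets the DKO mean against, on each control array, the higher of the lowest detected signal and the probe's own signal. Like the bounds given below, it holds for this normalization only and is not a least change under other processings. The raw mean intensities of this probe, which include the array background, differed 1.6-fold.

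The other 3 Acta2 probes did not show this difference. ILMN_2710353 was detected on 1 array of each group and had raw mean intensities of 137.5 in DKO and 149.5 in control. Its normalized values were 5.81, 4.89, 4.85 and 4.92 in DKO, and 4.92, 4.95, 5.12 and 4.84 in control, so the groups overlapped and DKO 1 alone was high. The normalized log2 difference of that probe was 0.16, and -0.07 without DKO 1. ILMN_2710354 was detected on 0 of 8 arrays, overlapped between the groups and differed by 0.11. ILMN_2923445 was detected on 0 of 8 arrays and differed by 0.33, with a gap of only 0.0022 between the groups. On the raw scale, the DKO mean of these 3 probes was 0.920, 0.936 and 0.987 of the control mean. A reading of the smooth muscle actin gene in DKO GMP therefore rests on 1 probe of 4, and no source used here says which part of the transcript each probe covers.

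Glipr2 was read by 2 probes, both higher in DKO. The brighter one, ILMN_3053593, had raw intensities of 556.9, 925.8, 921.2 and 1436.1 in DKO, and of 308.1, 444.7, 346.4 and 343.1 in control. Its normalized values were 10.06, 9.89, 9.77 and 10.22 in DKO, and 7.56, 7.78, 7.55 and 7.75 in control. The groups did not overlap, with a gap of 2.0, and the probe was detected on all 8 arrays. It averaged 9.99 ± 0.20 in DKO and 7.66 ± 0.12 in control (SD, n = 4 each), a log2 difference of 2.33 or 5.02-fold.

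The dimmer Glipr2 probe, ILMN_3130350, read 5.45, 6.41, 5.97 and 6.09 in DKO, and 4.57, 4.51, 4.64 and 4.40 in control after normalization. It was detected on 4 of 4 DKO arrays and on 0 of 4 control arrays, and the groups were 0.81 apart. Its log2 difference of 1.45 stands for at least 1.94-fold under this normalization, while its raw mean intensities differed 1.24-fold. On the raw scale its groups overlapped, since DKO 1 read 119.5, below all control arrays at 123.5 to 141.3. The other 3 DKO arrays read 192.8, 169.9 and 183.3. The probes also ordered the DKO arrays differently: DKO 1 was the second highest on the brighter probe and the lowest on the dimmer one. Without DKO 1, the log2 difference was 2.30 on the brighter probe and 1.63 on the dimmer one.

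Foxd4 was the least even of the 4 genes after normalization. Its probe ILMN_2744317 had raw intensities of 201.5, 198.7, 229 and 382.5 in DKO, and of 123.8, 145.8, 121.6 and 124.5 in control. The normalized values were 8.06, 6.55, 7.02 and 7.98 in DKO, and 4.37, 4.59, 4.36 and 4.41 in control. DKO 1 and DKO 4 were the high arrays and DKO 2 the lowest, and DKO 2 lay 1.95 above the highest control array. The forkhead gene was detected on 4 of 4 DKO arrays and on 0 of 4 control arrays. It averaged 7.40 ± 0.74 in DKO and 4.43 ± 0.11 in control (SD, n = 4 each), a log2 difference of 2.97 that stands for at least 5.20-fold under this normalization. The raw mean intensities, which include the array background, differed 1.96-fold.

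**Figure D1:**
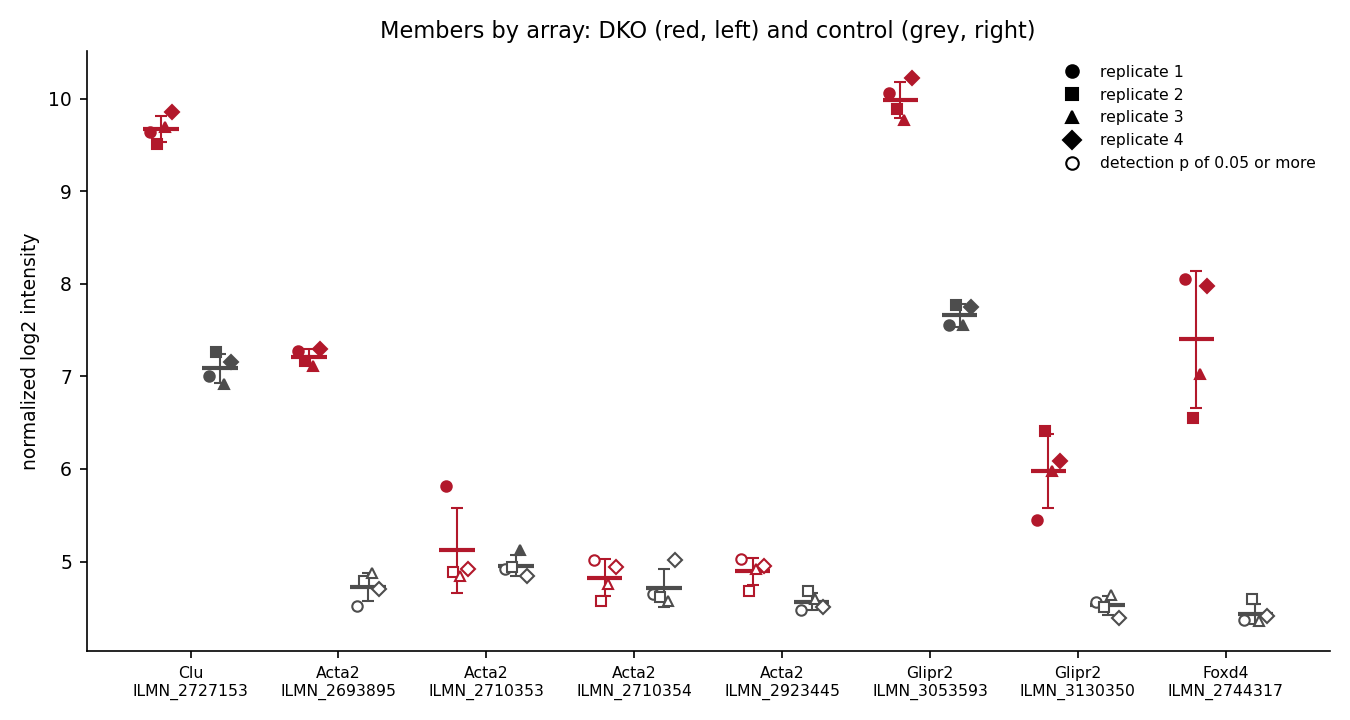
Normalized log2 intensity (vertical axis) of the 8 probes of Clu, Acta2, Glipr2 and Foxd4 on each array, DKO in red on the left and control in grey on the right of each probe. Bars are the mean with the SD (n = 4), marker shapes are replicate numbers, and open markers have a detection p-value of 0.05 or more. The 5 tested probes separate the groups, while the other 3 Acta2 probes lie between 4.48 and 5.81 in both groups.

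Over the whole array, 1125 of 10856 tested probes (10.4%) were called higher in DKO by limma at an adjusted p under 0.05, and for 1425 (13.1%) every DKO array lay above every control array. The 5 tested probes of the 4 genes all belong to the non-overlapping ones, which is what they were selected for. For Foxd4, 96.4% of tested probes had a smaller within-group SD. For Acta2 only 9.18% had a smaller one, for Clu 16.7%, and for the brighter Glipr2 probe 22.3%. Consistency of the rise was part of the selection too, so these shares restate it and are no separate result.

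The difference of each DKO array from the control mean shows how even the 4 genes were after normalization. Clu was higher by 2.55, 2.43, 2.60 and 2.77 on DKO 1 to 4, and Acta2 by 2.55, 2.44, 2.39 and 2.57. Glipr2, by its brighter probe, was higher by 2.40, 2.23, 2.12 and 2.56, and Foxd4 by 3.62, 2.11, 2.59 and 3.55. DKO 4 gave the highest value of Clu, Acta2 and Glipr2 and the second highest of Foxd4. DKO 1 gave the highest value of Foxd4, and DKO 2 gave the lowest of Clu and Foxd4. The evenness of Clu, Acta2 and Glipr2 depends on the normalization. As raw intensity over the array median, Clu read 3.75 on DKO 1 and 8.04 on DKO 4. On that scale Acta2 read 1.40 and 1.98 on these arrays, and the brighter Glipr2 probe 4.94 and 10.24. Likeness was measured as the root mean square difference over the 8 arrays after centring each probe on its control mean, in log2 units. It was 0.16 between Clu and Acta2, 0.17 between Acta2 and Glipr2 and 0.21 between Clu and Glipr2, against 0.48 to 0.58 between Foxd4 and each of the others. By its construction the measure is small for even rises of like size. The genes were selected for large, consistent rises, so these values show no shared pattern beyond that selection.

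The nearest other genes to each of the 4 were listed by the same measure, which by its construction picks genes with a DKO difference of like size. Clu lay nearest to Dgat2, an enzyme of triglyceride synthesis (0.28), the stress-induced chromatin protein gene Nupr1 (0.28) and Dnmt3l, a DNA methyltransferase cofactor (0.29). Acta2 lay nearest to Lrg1, a secreted leucine-rich glycoprotein (0.27), Gpr84, a receptor for medium-chain fatty acids (0.29), and Ambp, the precursor of alpha-1-microglobulin and bikunin (0.29). Glipr2 lay nearest to a second probe of Gpr84 (0.21), Lrg1 (0.25) and Nupr1 (0.27). Foxd4 lay nearest to Usp18, which removes ISG15 (0.33), Lcn2, the neutrophil granule protein lipocalin 2 (0.35), and a second probe of Dnmt3l (0.36). Their log2 differences ran between 2.18 for that Gpr84 probe and 3.17 for Usp18.

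The size of the difference depended on how the background was treated, most of all for the probes not detected in control GMP. With no background correction the log2 difference was 1.87 for Clu, 1.82 for the brighter Glipr2 probe, 1.19 for Foxd4, 0.92 for Acta2 and 0.45 for the dimmer Glipr2 probe. The order of the genes changed with it, as Foxd4 led under the normalization used above and Clu led without correction. The authors' processed values gave 1.81 for Clu, 1.76 and 0.41 for the Glipr2 probes, 1.11 for Foxd4 and 0.84 for Acta2. Alignment of the arrays by medians moved the median of all tested probes to -0.40, and relative to it Clu was higher by 2.46, Acta2 by 2.55, the Glipr2 probes by 2.23 and 1.70, and Foxd4 by 3.06. The direction was the same in all of these for the 5 tested probes. Values and calls of other genes by medians, given below, are not taken relative to the shifted median.

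**Figure D2:**
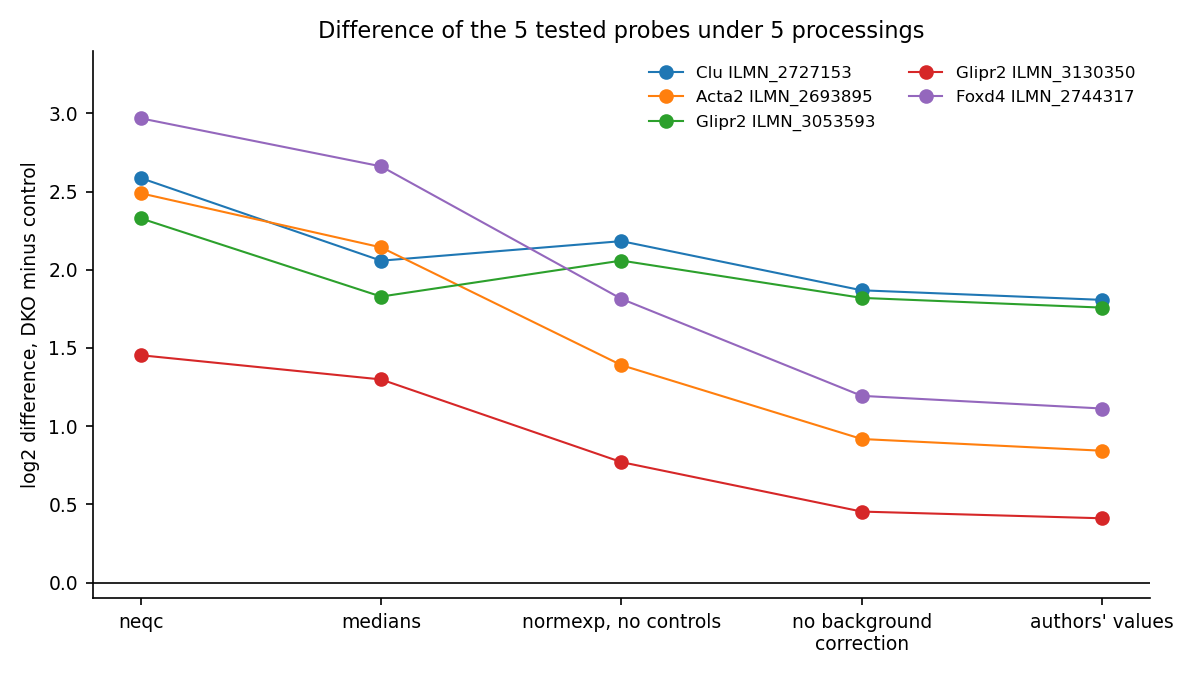
Log2 difference, DKO minus control (vertical axis), of the 5 tested probes of Clu, Acta2, Glipr2 and Foxd4 under 5 ways of processing the same arrays (horizontal axis, neqc being the one used in the text). All values are above 0, and Foxd4 is the highest line at 2.97 under neqc and the third at 1.11 in the authors' values.

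Of the 24 protein-coding genes placed within 3 positions on either side of the 4 genes in the RefSeq gene order, 22 were on the array and 10 were tested. By limma 2 were called higher, 0 lower and 8 did not pass, where 10.1% of tested genes were called higher and 14.3% lower. Of the 12 that were not tested, 10 were detected on 0 arrays by the probe shown. Reck, next to Glipr2, encodes a membrane-anchored inhibitor of matrix metalloproteases.

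Reck read 7.78, 6.20, 6.55 and 7.04 in DKO, and 4.94, 4.71, 4.95 and 5.17 in control. All DKO arrays were above all control arrays, where it was detected on 1 of 4, and DKO 1 was the highest. It rose, with a log2 difference of 1.95 (SE 0.29, limma adjusted p = 0.00116), and its size is uncertain because the control level lies near background. Stambpl1, a deubiquitinase gene next to Acta2, also rose, with 7.43, 7.53, 7.48 and 7.57 in DKO and 6.79, 6.70, 7.09 and 6.94 in control. Its log2 difference was 0.62 (SE 0.13, limma adjusted p = 0.00652). When the arrays were aligned by medians it was 0.08 without a call, at a median of -0.40 over all tested probes.

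On the other side of Acta2, the death receptor gene Fas differed by 0.33 (limma adjusted p = 0.312), and Lipa, the lysosomal acid lipase gene, by -0.54 (limma adjusted p = 0.0538). Next to Foxd4, Cbwd1 differed by 0.60 (limma adjusted p = 0.0515). Around Clu, the cohesin acetyltransferase gene Esco2 differed by 0.23, Ccdc25 by 0.18 and the epoxide hydrolase gene Ephx2 by 0.47. Around Glipr2, the clathrin light chain gene Clta differed by 0.07 and Gne, of sialic acid synthesis, by 0.24. None of these 8 genes was called, although Lipa and Cbwd1 passed under several alternatives, among them no background correction.

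**Figure D3:**
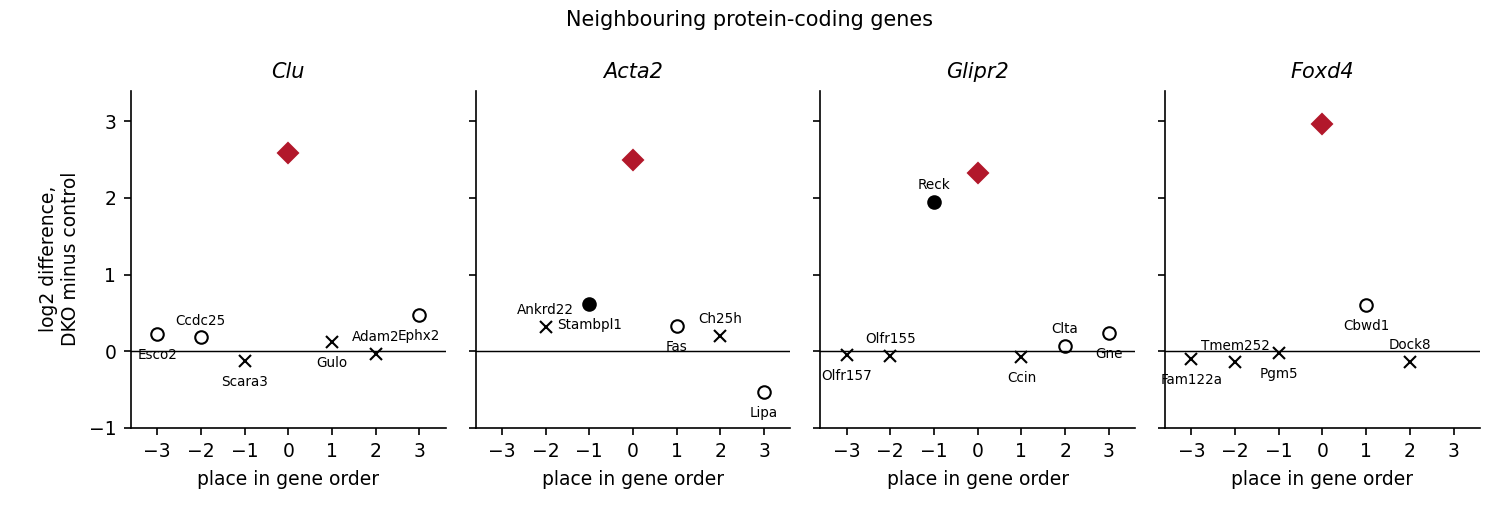
Log2 difference, DKO minus control (vertical axis), of Clu, Acta2, Glipr2 and Foxd4 (red diamonds, position 0) and of up to 3 protein-coding genes on each side (horizontal axis, place in gene order). Filled circles passed limma's threshold, open circles did not, and crosses are probes too dim to be tested. Reck at 1.95 is the only neighbour near the height of a diamond.

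Of 32 other actin and contractile genes, 29 were on the array and 14 were tested, of which 2 rose, 4 fell and 8 did not pass, with a median log2 difference of -0.18 against -0.03 over all tested genes, of which 10.1% were called higher and 14.3% lower. The cytoskeletal linkers Actn1 and Vcl rose, with log2 differences of 0.45 and 0.41 (limma adjusted p = 0.046 and 0.0451). The tropomyosin gene Tpm2 and the intermediate filament gene Vim fell, with log2 differences of -0.96 and -0.81 (limma adjusted p = 0.00442 and 0.0221). Tpm2 was detected on 2 DKO and 4 control arrays, so the size of its fall is uncertain. The fall of Tpm2 was -0.29 with no background correction and -0.26 in the authors' values, called in both. The myosin light chain gene Myl6 and the smooth muscle protein gene Smtn fell too, with log2 differences of -0.63 and -0.52 (limma adjusted p = 0.023 and 0.0211). The summed normalized level of the list, taken off the log scale, ran between 25400 and 36970 in DKO and between 37350 and 41110 in control. Actb alone made up 31.9% to 52.3% of it in DKO and 41.8% to 47.5% in control. Without Actb the sums did not overlap, at 17310 to 18280 in DKO and 20750 to 22360 in control. The call of Actn1 was lost without any 1 array other than DKO 1, and that of Vcl without any 1 array other than DKO 1 or DKO 3. The falls also lost their call in places, Myl6 without DKO 4, control 1 or control 2, Smtn without DKO 4, control 1 or control 3, and Vim without control 2 or control 3 or with no filter on dim probes. By medians Actn1 differed by -0.014 (limma adjusted p = 0.978), at a median of -0.40 over all tested probes, so its direction rests on the scaling. Vcl was not called by medians either.

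Among 30 genes of the SRF and TGF-beta responses, which include the known drivers of Acta2, 23 were on the array and 16 were tested. Of these 2 rose, 4 fell and 10 did not pass, with a median of -0.21, beside the 10.1% higher and 14.3% lower of all tested genes. Srf itself was among the 10, at a log2 difference of 0.42 (limma adjusted p = 0.076) by its brighter probe. Its other tested probe differed by 0.68 (limma adjusted p = 0.152). The basic helix-loop-helix repressor gene Bhlhe40 and the AP-1 gene Junb rose, with log2 differences of 1.61 and 1.30 (limma adjusted p = 0.000289 and 0.0024). The matrix protein gene Tgfbi and the immediate early gene Fos fell, with log2 differences of -1.72 and -1.21 (limma adjusted p = 0.000598 and 0.0156). So did the TGF-beta binding protein gene Ltbp3 at -1.01 and the signal mediator gene Smad4 at -0.47 (limma adjusted p = 0.00128 and 0.0216). Smad4 lost its call without control 1 or control 2. A second probe of the TGF-beta receptor gene Tgfbr1 was called lower (log2 difference -0.80, limma adjusted p = 0.0132), unlike its brightest probe.

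Of 33 other apolipoprotein and clusterin receptor genes, 27 were on the array and 11 were tested. By limma 1 rose, 4 fell and 6 did not pass, with a median of -0.09, where 10.1% of all tested genes were higher and 14.3% lower. Trem2, a lipid and clusterin receptor of myeloid cells, was detected on 0 of 4 DKO arrays and 4 of 4 control arrays. It fell at least 3.54-fold (log2 difference -2.13, limma adjusted p = 4.80e-05). The lipoprotein lipase gene Lpl and the apolipoprotein genes Apoe and Apoc1 fell, with log2 differences of -1.73, -1.43 and -1.23 (limma adjusted p = 0.000181, 0.00155 and 0.00919). Apom, a carrier of sphingosine 1-phosphate, rose at least 1.5-fold (limma adjusted p = 0.0017), detected on 4 of 4 DKO and 0 of 4 control arrays, and lost its call by medians. Trem2 and Apom entered the test through 1 group alone, and both also passed when all probes were tested. A second Apoc2 probe was called higher (log2 difference 0.53, limma adjusted p = 0.0269), unlike its brightest one.

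In the list built around Glipr2, of CAP-superfamily genes and partners of Beclin 1, 18 of 25 other genes were on the array and 9 were tested. The endotoxin receptor gene Tlr4 rose (log2 difference 0.88, limma adjusted p = 0.000886), a call lost by medians. The survival gene Bcl2, whose protein binds Beclin 1, fell (log2 difference -1.96, limma adjusted p = 0.00029). The other 7 did not pass, and the median was -0.10, where 10.1% of all tested genes were called higher and 14.3% lower. Of the other 4 tested Bcl2 probes, 1 did not pass.

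Of 45 other forkhead genes, 40 were on the array and 9 were tested, of which limma called 0 higher and 0 lower, with 2 at an unadjusted p under 0.05 and a median of -0.36. Over all 7604 tested genes 10.1% were called higher and 14.3% lower, and 2948 had an unadjusted p under 0.05. Alignment by medians called 4 forkhead genes lower, where it called 2335 of all 10856 tested probes lower at a median of -0.40. Leaving out DKO 2 called 2 forkhead genes lower, and 1244 of the 10856 probes. Of the 31 that were too dim to be tested, 25 were detected on 0 arrays. The brightest were Foxj3, at a log2 difference of -0.38 (limma adjusted p = 0.158), and Foxm1, a cell cycle regulator, at 0.06 (limma adjusted p = 0.851).

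Markers of other cell types that express Acta2 or Clu were compared in the same arrays. The fibroblast markers Col1a1, Col1a2, Col3a1, Dcn and Pdgfra, the endothelial marker Cdh5, and the smooth muscle markers Myh11, Cnn1, Tagln and Des were detected on 0 of the 8 arrays. Of the other endothelial markers, Kdr was detected on 1 array and Pecam1, which leukocytes also express, on all 8, at a log2 difference of -0.64 (limma adjusted p = 0.0976). Of 27 fibroblast and endothelial markers 25 were on the array and 8 were tested. Of these 1 rose and 7 did not pass, beside the 10.1% higher and 14.3% lower of all tested genes. The one that rose was Thy1, also a lymphoid surface gene (log2 difference 1.49, limma adjusted p = 0.0041). Thy1 was detected on 4 DKO and 3 control arrays, and its control mean of 5.19 lies near background. Besides Pecam1, the 7 others include Eng and Vwf, detected on all 8 arrays. Tek and Col5a1 were detected on 1 DKO and 4 control arrays, and Pdgfrb and Plvap on 1 DKO and 3 control arrays. The median over the 8 tested markers was -0.27. The summed normalized level of the list, taken off the log scale, ran between 872.3 and 1232 in DKO and between 1057 and 1129 in control.

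Markers of megakaryocytes and platelets, which express Clu, were detected in both groups. Pf4, Itga2b and Gp9 were detected on all 8 arrays, and Gp1bb on 2 DKO and 2 control arrays. Pf4 differed by 0.003, Itga2b by -0.10, Gp9 by -0.41 (limma adjusted p = 0.0645) and Gp1bb by 0.29, none of them called. Of 23 such markers 20 were on the array and 12 were tested. Of these 1 rose, 3 fell and 8 did not pass, with a median of -0.08, beside the 10.1% higher and 14.3% lower of all tested genes. Clec1b, the podoplanin receptor gene, rose (log2 difference 0.81, limma adjusted p = 0.0189). The transcription cofactor gene Zfpm1, the tetraspanin gene Cd9 and the transcription factor gene Nfe2 fell, with log2 differences of -1.12, -0.74 and -0.74 (limma adjusted p = 0.028, 0.0187 and 0.00286). The calls of Zfpm1 and Clec1b were each lost under several alternatives, and that of Cd9 without control 2 or control 3. The summed level of the list ran between 4196 and 6839 in DKO and between 7044 and 7963 in control, with Nfe2 alone at 45.3% to 60.6% of it in DKO and 59.8% to 64.6% in control. Without Nfe2 the sums overlapped, at 1652 to 3742 in DKO and 2724 to 3203 in control. The part of these markers in the level of Clu was not tested.

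The GMP markers themselves were measured for 13 of 15 genes, of which 0 rose, 3 fell and 10 did not pass, with 4 at an unadjusted p under 0.05 and a median of 0.11. Over all 7604 tested genes 10.1% were called higher and 14.3% lower, and 2948 had an unadjusted p under 0.05. The myeloid lectin gene Fcnb, the sort marker gene Cd34 and the cytokine receptor gene Csf2ra fell, with log2 differences of -1.62, -1.42 and -0.68 (limma adjusted p = 0.000382, 0.000858 and 0.00814). The summed level of these markers ran between 122000 and 129900 in DKO and between 110400 and 124100 in control, and its part in the levels of the 4 genes was not tested.

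**Figure D4:**
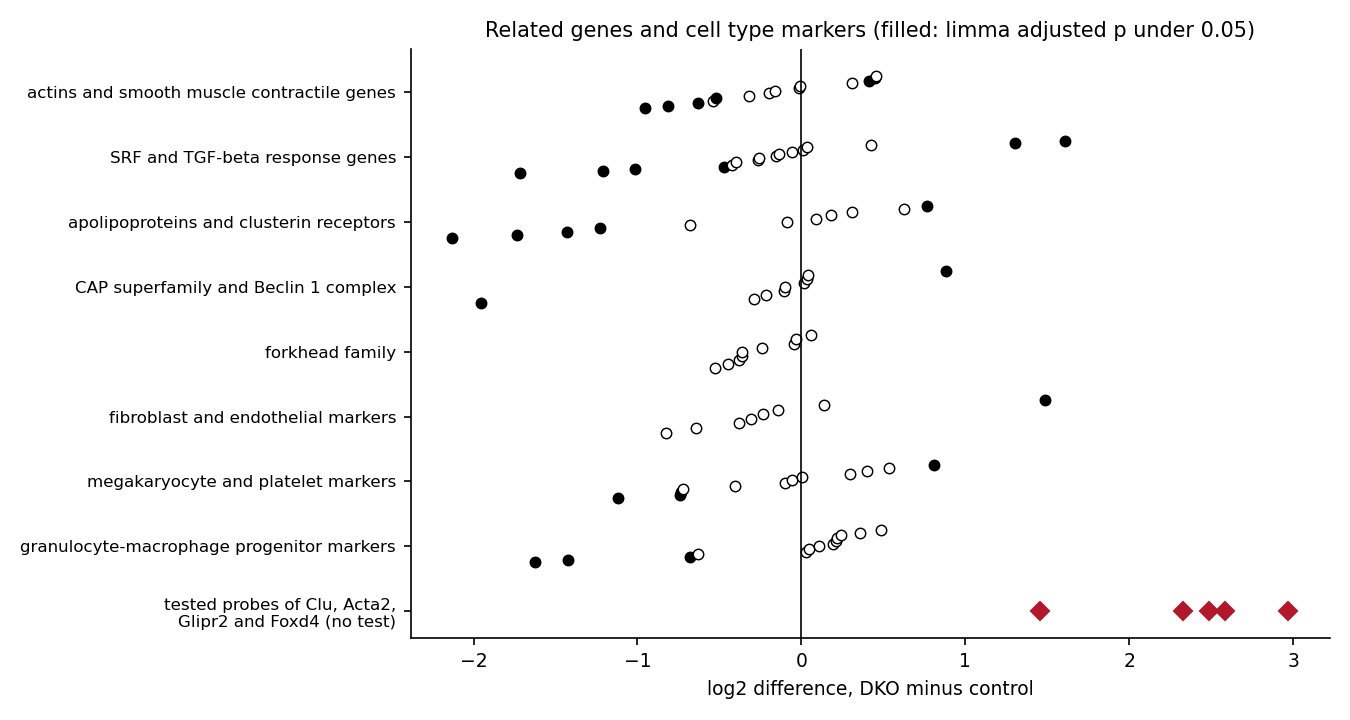
Log2 difference, DKO minus control (horizontal axis), of the tested genes in 8 lists and, as red diamonds, of the 5 tested probes of Clu, Acta2, Glipr2 and Foxd4. Filled circles passed limma's threshold and open circles did not. No gene of any list is above 1.61, while the lowest diamond, the dimmer Glipr2 probe, is at 1.45 and the other 4 lie between 2.33 and 2.97.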

How the data were processed

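GMP of 4 DKO and 4 control samples were measured on 1 array each. The deposited non-normalized table holds 1 intensity per probe and array, not background-subtracted, as read from its values. Beside each stands the authors' detection p-value, whose calculation no header explains. Per the submitters' processing notes, GenomeStudio was used, with no version given. The authors' processed table holds log2 values close to quantile-normalized log2 intensities (r between 0.9992 and 0.9995 over probes) and was used as an alternative only. Its scale, its centring per probe and its direction were read from that comparison, its column medians lie between -0.0044 and -0.0005, and its exact centre stays unknown. The table has 10 unnamed, empty columns.

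Intensities were normalized with neqc (limma 3.58.1, R 4.3.3), which infers negative controls from those p-values, corrects the background with them, adds 16 and equalises quantiles. Low signals are spread out by this correction, which widens differences of dim probes. DKO and control were compared by limma's lmFit and eBayes, with no covariate, on all 10856 probes detected at p under 0.05 on at least 4 of 8 arrays, with Benjamini-Hochberg adjustment and a threshold of 0.05. This filter admits a probe that only 1 group shows, and such a probe had to differ. Genes are counted by their tested probe with the highest mean. The steps were tested on simulated data. The number of arrays limits the precision.

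The platform annotation gave 1 symbol for 23978 probes and none for 1719, and 23962 matched RefSeq genes by identifier. Motifs were searched on both strands of 32851 RefSeq windows of GRCm38.p6.

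The 4 genes, the lists and the named genes were chosen with earlier results of these data known. Named are all probes of the 4 genes, Nabp1 and Nabp2, all neighbours on the array that were tested, up to 6 called genes per list by smallest p or otherwise the 2 brightest, and the 3 most alike genes. Genes of the GMP and defining marker lists are named in addition, and so are genes with a differing second probe or that dominate a sum, chosen after their values were seen. Srf and the tested fibroblast and endothelial markers were added in the same way. The labels do not state whether each sample is a separate mouse, and the p-values therefore describe the spread between samples, which may be technical. Alternatives were other background corrections, alignment by medians, the authors' values, other filters, a replicate block and leaving out each array.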

Additional observations from a re-analysis of the deposited data

Results flagged for a closer look

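In 118 groups of 4 arrays, covering 59 of the results above, 9 held 1 array far from the others of its group. Chance alone gives about 1 such array in 20 groups. Among the probes of Clu, Acta2, Glipr2 and Foxd4 there were 2, both on Acta2 probes at background. ILMN_2710353 read 5.81 on DKO 1, with the other DKO arrays between 4.85 and 4.92. ILMN_2710354 read 5.01 on control 4, with the other control arrays between 4.58 and 4.65.

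On DKO 2, Tpm2 read 4.63 (the other DKO arrays 5.19 to 5.30), Smtn 8.06 (7.72 to 7.75) and Foxj3 7.76 (8.40 to 8.49). On DKO 1, Lipa read 7.90, with the other DKO arrays at 8.53 to 8.64. On control 4, Csf2ra read 10.25 (the other control arrays 10.62 to 10.67) and Lcn2 8.88 (9.38 to 9.41). Nabp2, by its brighter probe, read 8.13 on control 3, with the other control arrays at 8.96 to 9.10.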

How the results depend on the processing

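The log2 differences of the 5 tested probes of Clu, Acta2, Glipr2 and Foxd4 kept their direction under every alternative run, and their sizes moved as follows. With no background correction they were 1.87 for Clu, 0.92 for Acta2, 1.82 and 0.45 for Glipr2 and 1.19 for Foxd4. With normexp without controls, at an offset of 50, they were 2.18, 1.39, 2.06 and 0.77, and 1.81. With arrays aligned by medians Clu was at 2.06, Acta2 at 2.14 and the brighter Glipr2 probe at 1.83. The authors' values gave 1.81, 0.84, 1.76 and 0.41, and 1.11. Leaving out 1 array in turn gave 2.53 to 2.65 for Clu, 2.42 to 2.54 for Acta2, 2.25 to 2.40 and 1.31 to 1.63 for the Glipr2 probes, and 2.75 to 3.25 for Foxd4. Under the filter that asks for detection on all 8 arrays at 0.01, only Clu and the brighter Glipr2 probe were left of the 4 genes. The probes are few and the dim ones lie near the array background, which limits the size of their change to a bound. That bound holds only for the normalization used above.

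Over all tested probes, 1125 were higher and 1344 lower. With arrays aligned by medians 148 were higher and 2335 lower, at a median of -0.40. Leaving out 1 array gave 665 to 1161 higher and 864 to 1354 lower, with 742 higher without control 1, and 665 higher and 864 lower without control 2.

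For the counts of genes per list, alignment by medians gave 0 higher for contractile genes, apolipoproteins, CAP and Beclin 1 genes and megakaryocyte markers. It gave 7 lower for SRF and TGF-beta genes, 2 for CAP and Beclin 1 genes, 4 for forkhead genes, 2 for fibroblast and endothelial markers and 5 for megakaryocyte markers. By medians the difference of Actn1 turned to -0.014. No background correction and the authors' values each gave 2 lower for CAP and Beclin 1 genes, 0 higher for megakaryocyte markers and 1 higher for GMP markers. No filter on dim probes gave 1 higher for contractile genes and 1 lower for forkhead genes. With only probes detected on all arrays, apolipoproteins had 0 higher and 0 lower, forkhead genes 1 lower, fibroblast and endothelial markers 0 higher and megakaryocyte markers 0 higher and 5 lower, with fewer genes tested.

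Leaving out 1 array in turn gave, for contractile genes, 0 to 2 higher and 2 to 5 lower. It was 0 higher without DKO 2, DKO 4 or any 1 control array, 1 without DKO 3, and 2 lower without DKO 4, control 1, control 2 or control 3. Apolipoproteins had 1 to 2 higher (2 without DKO 1). Forkhead genes had 0 to 2 lower, with 2 without DKO 2 and 1 without DKO 1 or control 3. Fibroblast and endothelial markers had 0 to 2 lower (2 without DKO 3). Megakaryocyte markers had 0 to 1 higher (0 without control 1 or control 4) and 1 to 4 lower (1 without control 2 or control 3). The cause of these shifts was not tested.

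Samples of the same replicate number did not deviate together throughout, with correlations of their deviations between -0.11 and 0.20 over 4 pairs, so the numbers were not read as a pairing. With the replicate block, 1102 probes were higher and 1318 lower, contractile genes had 1 higher and fibroblast and endothelial markers 1 lower, and the differences of the 4 genes were the same by construction. The slide as a block was not run, because neither labels nor files name the slides.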
